A study of Caenorhabditis elegans with 2 samples.

Results

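The genes described here are mex-1, mex-5, mex-6, pos-1, pie-1, oma-1 and oma-2 of the nematode Caenorhabditis elegans. They encode germline proteins with CCCH zinc fingers and were taken as a named list, 7 of the 19973 nuclear protein-coding genes in the Ensembl annotation. Binding of the forkhead transcription factor UNC-130 was measured by ChIP-seq in 2 biological replicates that form 1 group, and the data are the lists of peaks. Whole hermaphrodites at the L4 stage were collected 48 h after release of starved L1 larvae, and an antibody to GFP was used for the precipitation. The strain, AGK541, carried the insertion armSi1 on chromosome II, in which the mex-5 promoter drives UNC-130 joined to GFP ahead of the tbb-2 3' UTR and a cb-unc-119(+) marker. The labels name the tag GFP, eGFP or, at the C terminus, GFP-FLAG. The strain also carried unc-119(ed3) on III and niDf199 on IV, and both replicates share this genotype. The tagged protein was therefore under a germline promoter, not its own, and a copy of the promoter of one of the 7 genes was present in every animal. No second condition and no strain without the transgene is part of the design, and the peak lists hold no expression values against which the stage or tissue could be checked.

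CCCH zinc finger proteins bind RNA through fingers in which 3 cysteines and 1 histidine hold a zinc ion. In C. elegans these 7 act in oocytes and early embryos, where most genes of the embryo are still silent and cell fate is set by control of maternal mRNAs. Their own mRNAs are made in the maternal germline, and much of their known control acts on the 3' UTR, on protein stability and on protein position within the embryo. The peaks described here are instead a measure at the DNA ahead of these genes.

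All peaks are on the ce11 build. The authors used the irreproducible discovery rate (IDR) method to derive a list of 1667 peaks, referred to here as IDR peaks. Relaxed lists, which by their label also hold background, numbered 19058 entries (replicate 1), 18463 (replicate 2) and 16959 (reads of both pooled). Signal is the authors' own value for each peak, has no stated unit and is compared only within a list, and rank 1 is the strongest peak of a list. The IDR peaks are the 1667 strongest of the pooled list and keep their pooled signal and rank. Depth is unknown because the lists give no read counts. The promoter window held the 1000 bp ahead of the annotated 5' end and the 200 bp after it, and a gene was counted when a peak summit lay in this window. In whole animals, a signal cannot tell binding in more cells from more binding per cell.

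UNC-130::GFP peaks lay ahead of every one of the 7 genes. In all 7 the promoter window held an IDR summit, as it did in 1568 of 19973 coding genes (7.85%, 95% Wilson interval 7.49 to 8.23, which covers counting error over genes alone). They shared 8 IDR summits, since mex-1 had 2, and each of these summits was intergenic. Signals ran from 66.2 at pie-1 to 168.7 at mex-5, with a median of 111.4 for the highest peak of each gene, beside a median of 94.9 and an interquartile range of 73.0 to 136.2 over the 1568 genes. Thus 5 of the 7 were above the median gene with a summit, while oma-2 and pie-1 were below it. In the relaxed lists the 7 genes also all had a summit, but so did 30.4% of coding genes in the pooled list, 31.0% in that of replicate 1 and 31.7% in that of replicate 2. No test was made on the count, because the genes were chosen as a group with earlier results of these data known. Control reads were not used here.

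**Figure D1:**
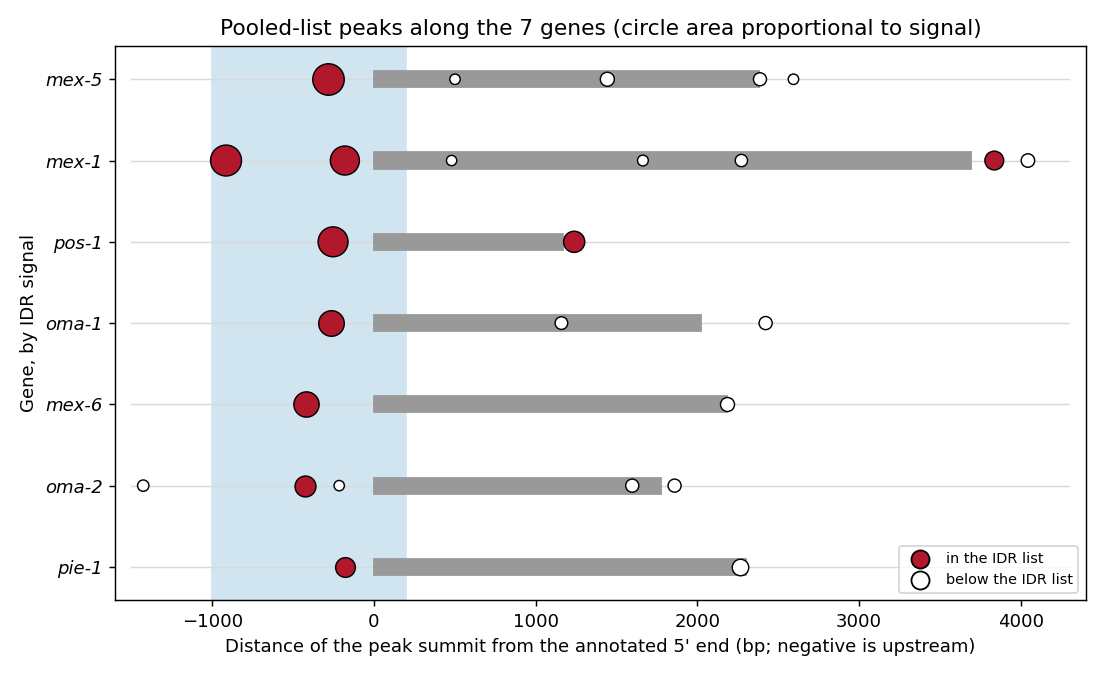
Summits of pooled-list peaks (circles) at each of the 7 genes, by distance from the annotated 5' end in bp, with the gene as a grey bar, the promoter window shaded and circle area proportional to signal. Every gene has a filled circle, an IDR peak, in the shaded window, and mex-1 and pos-1 have another near the 3' end.

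mex-5 and mex-6 encode closely related proteins that act early in the zygote, where they help to separate anterior from posterior cytoplasm. The mex-5 gene (IV, 13353723 to 13356104, plus strand) had the peak of highest signal among the 7. Its signal was 72.4 in replicate 1 (rank 133), 97.4 in replicate 2 (rank 188) and 168.7 in the pooled and IDR lists (rank 156), higher than that of 88.0% of genes with an IDR summit. The peak (IV, 13353228 to 13353647) had its summit 285 bp upstream of mex-5 and 245 bp upstream of rec-8, a meiotic cohesin gene on the other strand, in an intergenic gap of 529 bp. This summit is nearer to rec-8, so mex-5 alone of the 7 has no summit when each one is given only to the coding gene with the nearest 5' end. Replicate 1 listed a further weak entry 137 bp upstream (rank 6210), and replicate 2 did not.

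The transgene adds a copy of the mex-5 promoter, and peaks on that copy and on the gene's own promoter cannot be told apart in these lists. The paralog mex-6 (II, 9524174 to 9526359, plus strand), whose promoter is not named among the transgene parts, had a signal of 36.9 in replicate 1 (rank 810), 70.0 in replicate 2 (rank 459) and 108.6 in the pooled list (rank 523). Its peak (II, 9523542 to 9523961) had its summit 422 bp upstream, in a gap of 650 bp behind AH6.17, and in no other coding promoter window. mex-6 was thus lower in rank than mex-5 in each list. Replicate 1 listed a further entry nearer to mex-6 at rank 2877.

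The worm's own copies of other genes named in the strain label were also looked up. No IDR peak and no pooled entry lay within 1000 bp of the unc-130 gene, whose coding sequence the transgene carries. Replicate 1 alone listed entries there, the stronger at rank 12159. At the C. elegans unc-119 gene, which is not the marker cb-unc-119(+) of the transgene, no IDR peak was found, and the strongest pooled entry had rank 5887. At tbb-2, a beta-tubulin gene whose 3' UTR is in the transgene, an IDR peak of signal 124.2 (rank 397) had its summit 153 bp past the annotated 3' end, where C36E8.4 ends on the other strand. The replicates placed this summit 109 bp (rank 271) and 199 bp (rank 428) past that end. No value here measures the transgene itself, and its part in the mex-5 signal was not tested.

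oma-1 and oma-2 encode redundant proteins needed for oocyte maturation, and OMA-1 also holds back transcription in the early embryo. oma-1 (IV, 8888976 to 8890999, plus strand) had a signal of 38.9 in replicate 1 (rank 740), 71.6 in replicate 2 (rank 435) and 111.4 in the pooled list (rank 493). Its peak (IV, 8888499 to 8888918) had the summit 267 bp upstream, in a gap of 408 bp behind C09G9.5. oma-2 (V, 8029439 to 8031214, plus strand) had a signal of 26.8 in replicate 1 (rank 1479), 46.9 in replicate 2 (rank 1078) and 74.2 in the pooled list (rank 1127). Its peak (V, 8028805 to 8029224) had the summit 424 bp upstream, in a gap of 649 bp behind F43H9.4. oma-1 ranked above oma-2 in both replicates, and the rank ranges of the pair did not overlap. The pooled list also held an entry 215 bp upstream of oma-2 at rank 13593, seen in replicate 1 at rank 13411 and in replicate 2 at rank 4998.

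pos-1, mex-1 and pie-1 encode proteins that set the fate of posterior and germline cells of the embryo, and PIE-1 keeps the germline lineage transcriptionally silent. pos-1 (V, 8414086 to 8415254, plus strand) had a signal of 57.4 in replicate 1 (rank 287), 91.9 in replicate 2 (rank 226) and 152.3 in the pooled list (rank 228). Its peak (V, 8413623 to 8414042) had the summit 253 bp upstream of pos-1 and 351 bp upstream of vha-18, a proton pump subunit gene on the other strand. The replicates placed the pos-1 summit only 3 bp apart.

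mex-1 (II, 11968637 to 11972330, plus strand) was the one gene of the 7 with more than 1 IDR summit, as were 50 of the 1568 genes (3.19%). The summit nearer to mex-1, 180 bp upstream (II, 11968368 to 11968518), had a pooled signal of 143.7 (rank 272), with 55.6 in replicate 1 (rank 315) and 87.2 in replicate 2 (rank 269). The other, 915 bp upstream (II, 11967609 to 11967810), was stronger, with a pooled signal of 163.2 (rank 177), 67.6 in replicate 1 (rank 175) and 96.3 in replicate 2 (rank 197). That summit lay 178 bp upstream of W03C9.5, which faces away from mex-1 across a gap of 1092 bp, and it was also in the window of rab-7, a gene of late endosomes. The shared gap thus held a summit at about the same distance ahead of each of the facing genes. Replicate 1 also listed an entry 103 bp downstream of the mex-1 5' end at rank 1813.

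pie-1 (III, 12426893 to 12429195, plus strand) had the lowest signal of the 7. It was 27.2 in replicate 1 (rank 1435), 36.5 in replicate 2 (rank 1657) and 66.2 in the pooled list (rank 1398), where the lowest IDR peak had 58.8 and the first peak outside the list 58.8 as well. Its peak (III, 12426502 to 12426921) had the summit 181 bp upstream, in a gap of 5174 bp that was the longest among the 7. The replicates placed the summit 122 bp and 187 bp upstream, the largest shift of the 7 at 65 bp. Of the 7, pie-1 was the nearest to the lower limit of the IDR list, at rank 1398 of 1667. Below that list, no promoter peak of these genes came before the second oma-2 entry at rank 13593. Just outside the window, the nearest pooled entries were those 480 bp downstream of the mex-1 5' end, 501 bp downstream of that of mex-5 and 1427 bp upstream of that of oma-2, at ranks 13986, 13196 and 9124.

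The order of the 7 by their highest peak was mex-5, mex-1, pos-1, oma-1, mex-6, oma-2 and pie-1 in the pooled list. For mex-1 the highest peak was the one with its summit 915 bp upstream. By its nearer summit (rank 272), mex-1 came below pos-1 (rank 228). The replicates placed 20 of the 21 pairs in the same order, and the exception was oma-2 and pie-1. With the range over both replicates as the spread, the ranks of mex-5 (133 to 188) and mex-1 (175 to 197) overlapped, as did those of oma-1 (435 to 740) and mex-6 (459 to 810) and those of oma-2 (1078 to 1479) and pie-1 (1435 to 1657). Those of pos-1 (226 to 287) overlapped with neither neighbour, although they did with the nearer mex-1 peak (269 to 315). The rank of a gene differed between the replicates by 1.13 to 1.76 times, with a median of 1.37, beside a median of 1.58 over the 1563 genes with an IDR summit and an entry in both replicates. Spread over 2 replicates allows no test of these differences.

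**Figure D2:**
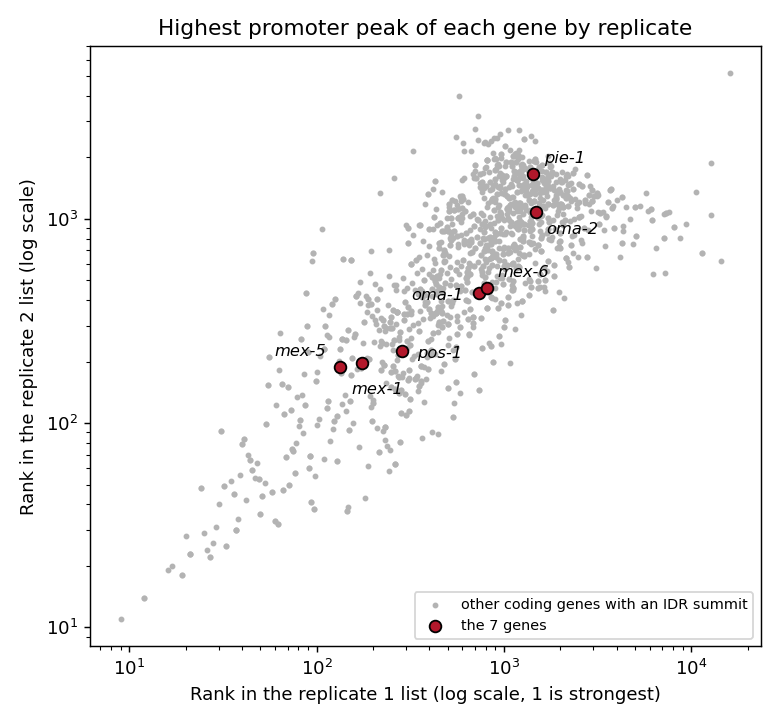
Rank of the highest promoter peak in replicate 1 (x axis) and replicate 2 (y axis), both on log scales, for coding genes with an IDR summit (grey) and the 7 genes (red). mex-5, mex-1 and pos-1 lie between ranks 133 and 287, and oma-2 and pie-1 between 1078 and 1657.

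The IDR summit nearest to each 5' end was 180 to 424 bp upstream, with a median of 267 bp, and none was downstream, while the highest mex-1 summit was 915 bp upstream. Over the 1568 genes this distance had a median of 245 bp and an interquartile range of 140 to 408 bp, and 39.9% of them fell between 180 and 424 bp. The distance of the 7 was thus near that of other genes with a summit. For mex-6 and oma-2 the summits were 422 and 424 bp upstream, and for mex-1 and pie-1 180 and 181 bp upstream. Of the 7 genes, mex-1, mex-5, pos-1 and pie-1 have a neighbour on the other strand ahead of them, and mex-6, oma-1 and oma-2 one on the same strand. No annotated noncoding gene had its 5' end within 500 bp of any of the 8 summits. Of the 8 peaks, 6 had the width of 420 bp that 85.8% of IDR peaks have, with the summit in the middle, and both mex-1 peaks were narrower, at 202 and 151 bp.

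**Figure D3:**
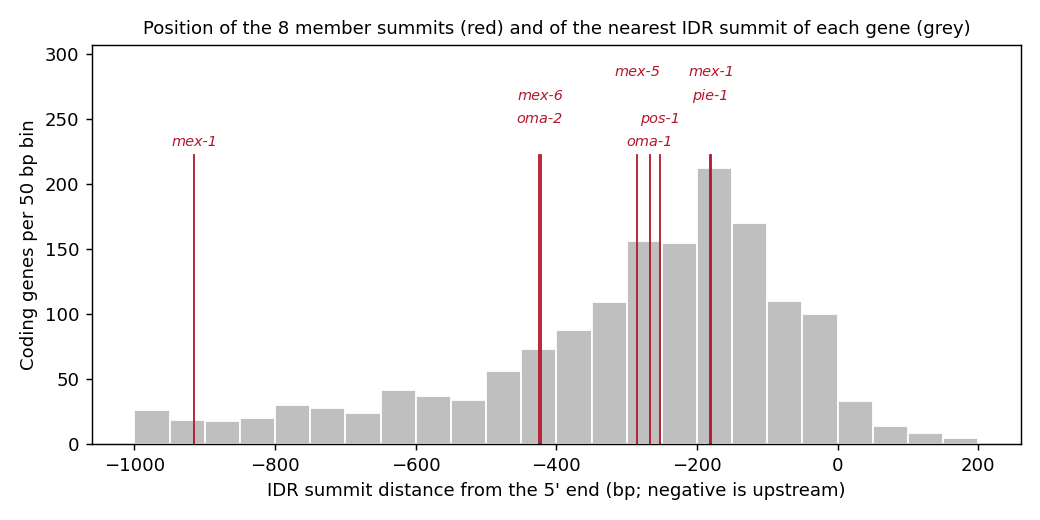
Number of coding genes by distance of their nearest IDR summit from the 5' end in 50 bp bins (grey), with the 8 summits of the 7 genes as red lines. The lines at 180 to 424 bp upstream lie within the main body of the grey bars, and the second mex-1 summit lies at 915 bp.

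Weaker peaks were also found near the 3' ends of most of the 7 genes, a feature looked at after the peaks had been seen. Within 200 bp of the annotated 3' end, the pooled relaxed list had a summit at 6 of the 7, all but oma-1, against 15.6% of coding genes. Among the 1568 genes with a promoter summit in the IDR list the share was 44.5%, and it is this share with which the 6 of 7 is to be read. Replicate 1 alone gave 6 of the 7 against 15.4%, and replicate 2 gave 5 of the 7 against 15.6%. In the IDR list, pos-1 and mex-1 had such a summit, against 1.89% of coding genes. The share among the 1568 genes was taken for the pooled list alone. The counts in the replicate and IDR lists therefore lack that nearer comparison. The pos-1 peak (V, 8415114 to 8415533) had a signal of 76.4 (rank 1069), with its summit 70 bp past the 3' end. Its ranks were 1778 in replicate 1 and 901 in replicate 2. The mex-1 peak (II, 11972263 to 11972682) had a signal of 60.5 (rank 1606), with its summit 143 bp past the 3' end, inside the facing gene acbp-6. Replicate 1 placed this mex-1 summit 141 bp past the end at rank 904, and replicate 2 listed none within 200 bp.

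The other 3' summits were below the IDR list. pie-1 had one 37 bp ahead of its 3' end (signal 46.5, rank 2365), mex-6 one 5 bp ahead (33.4, rank 3982) and mex-5 one 6 bp past it (28.9, rank 5195), all in the pooled list. oma-2 had a pair, the stronger with a signal of 29.4 (rank 5024), and both were also in the promoter window of the next gene, vars-1, a tRNA synthetase gene. The 3' summits of the 5 others lay in no coding promoter window. At oma-1 the nearest pooled summit was 399 bp past the 3' end, 64 bp upstream of spr-2 (29.3, rank 5037).

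The DNA at the summits held a short word in common at several of these genes. The word ACCGTAG was seen in the sequences below and was then searched on both strands within 50 bp of each summit. It was present at mex-1, mex-6, oma-1 and oma-2, in each case on the strand of the gene, with its centre 3 to 16 bp from the summit. Of all 1648 nuclear IDR summits, 57 (3.46%) held it within 50 bp, and of all coding promoter windows 5.45% held it anywhere. Its first 6 letters, ACCGTA, were present at 5 of the 7, with mex-5 added, against 12.2% of IDR summits. By summit, 4 of the 8 held ACCGTAG and 5 held ACCGTA, and the mex-1 summit 915 bp upstream held neither. Anywhere in the promoter window, ACCGTA was found at 6 of the 7 and in 28.6% of coding windows. Since the word was picked from these same sequences, its count at the 7 genes is a description and no test was made. The bases below are shown because they hold the word nearest to the summit. They are from the WBcel235 genome, 5' to 3' on the plus strand, which is the strand of each gene, and capitals mark the word.
oma-1, chrIV:8888700-8888729: aaaacagtgcgACCGTAGtttatgcccccg
oma-2, chrV:8028998-8029027: aaacgagtgtgACCGTAGtcattggtgaaa
mex-6, chrII:9523727-9523756: tctctacgaatACCGTAGtcacttggttaa
mex-1, chrII:11968427-11968456: tcaccacgactACCGTAGcccgtggagcgg
mex-5, chrIV:13353396-13353425: ttaccgcgtatACCGTActccgtttgtttg

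At pos-1 and pie-1 neither form of the word was found within 50 bp of the summit, and at pie-1 the shorter form lay 58 bp from it. Their bases are shown for contrast, with the summit base in capitals, and are rich in A and T.
pos-1, chrV:8413818-8413847: tctattgcgaaaattCaagttttttttttc
pie-1, chrIII:12426697-12426726: aagaaaaagtttttaAaaatctgtgagtcc
Within 50 bp of the summit, G and C made up 36.6% of the bases at pos-1 and 29.7% at pie-1. Among the other summits they made up 41.6% at mex-5 to 57.4% at the distant mex-1 summit. The median over the 8 summits was 43.1%, beside 45.5% (interquartile range 39.6 to 51.5%) over all nuclear IDR summits.

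Words of known binding sites were also searched, and at 1 of the 7 genes any of 4 such words lay within 50 bp of a summit, beside 6.74% of IDR summits. Forkhead proteins bind variants of GTAAACA, and neither this word nor GTAAATA lay within 50 bp of any of the 8 summits on either strand, where 2.25% and 1.15% of IDR summits held them. In the whole promoter window GTAAACA was found at none of the 7 (15.1% of coding windows) and GTAAATA at mex-6, oma-2, pie-1 and pos-1 (23.5% of coding windows). The nearest of these was at pie-1, 53 bp from the summit, shown here with the word in capitals.
pie-1, chrIII:12426645-12426674: gagctttgtttGTAAATAatcagtgaaaaa
CTGTTTCA, a word known ahead of the 21U-RNA genes of the germline, was in no window of the 7 (9.03% of coding windows). TTCCCGC, a core of sites for E2F proteins, was found at mex-1 alone, reversed and with its centre 1 bp from the nearer summit (3.34% of IDR summits within 50 bp). A missing word says only that these letters are not in the window.

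Of 10 further CCCH genes on a named list, ccch-3 had an IDR summit (signal 66.7, rank 1376), a share of 10% (95% Wilson interval 1.79 to 40.4) that is near the 7.85% of all coding genes. The summit lay in the 5' part of ccch-3, 13 bp downstream of its start. The splicing factor gene uaf-2 came next, at rank 1769 in the pooled list and so just below the IDR peaks, and ccch-1, ccch-5, dct-13 and the oma paralog moe-3 had no entry in the pooled list. Genes were also counted by protein pattern, and ccch-1, ccch-2, ccch-5, dct-13 and moe-3 are in this count as well as on the named list. The finger pattern C-x8-C-x5-C-x3-H was found at least 2 times in mex-1, oma-1, oma-2 and pos-1 and in 11 other coding genes, none of which had an IDR summit (Wilson upper bound 25.9%, which includes the 7.85% of all coding genes). With a first gap of 7 to 10 residues, a choice made after that result was seen, all 7 had 2 fingers, as did 16 other coding genes. Of these 16, 2 had an IDR summit (12.5%, against 7.85% of coding genes), namely lep-2 (signal 154.4, rank 221) and T26A8.4 (139.3, rank 300). The lep-2 summit of that rank lay 920 bp upstream and was also in the window of egrh-2, and its nearest IDR summit lay 720 bp upstream. That of T26A8.4, 64 bp upstream, was also in the window of pdtf-1. A match to the pattern does not show that a protein is of this family, and the phagocytic receptor gene ced-1 is among the matches. In turn ccch-3, from the named list, had no match to the first pattern and is not among the 16.

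Among 25 genes for regulators and partners of these proteins, 10 had an IDR summit (40%, against 7.85% of coding genes). The highest signals were at ifet-1, a translational repressor of the germline (169.7, rank 153, a summit 500 bp upstream of ifet-1 and nearer to the ribosomal protein gene rps-1, at 268 bp), plk-1, the Polo kinase that binds MEX-5 (147.0, rank 254), cdk-1, the mitotic kinase (112.1, rank 485), gld-2, a poly(A) polymerase subunit (92.4, rank 746), cgh-1, a germline RNA helicase (84.2, rank 884), and rnp-8, a partner of GLD-2 (76.5, rank 1067). The others were taf-4, spn-4, gld-1 and gld-3, with signals from 69.2 to 75.2. The spn-4 summit, 359 bp upstream, was nearer to spe-39 (189 bp). That of gld-3, 346 bp upstream, was nearer to T07F8.4 (265 bp), and that of taf-4 was also in the window of pqn-59. The summits of cdk-1 and cgh-1 lay 637 and 798 bp upstream, and that of gld-2 lay downstream of its 5' end. rnp-8 stood apart between the replicates, at rank 6247 in replicate 1 and 534 in replicate 2. Of the other kinase genes on the list, plk-2 had a pooled entry below the IDR list (rank 2414), and par-1, par-4, mbk-2, gsk-3 and kin-19 had none in the pooled list. zif-1, whose product marks PIE-1, POS-1 and MEX-1 for breakdown, had only an entry below the IDR list (signal 25.2, rank 6860). Of 14 genes whose mRNAs are under maternal control, 2 had an IDR summit (14.3%), egg-1 (149.3, rank 239) and glp-1 (79.2, rank 1000). Another 8 of the 14, among them pal-1, mom-2 and nos-2, had pooled entries below the IDR list. In all, 10 of the 14 had a pooled entry (71.4%), against 30.4% of coding genes. So did 17 of the 25 regulators and partners (68%) and 4 of the 10 other CCCH genes (40%).

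**Figure D4:**
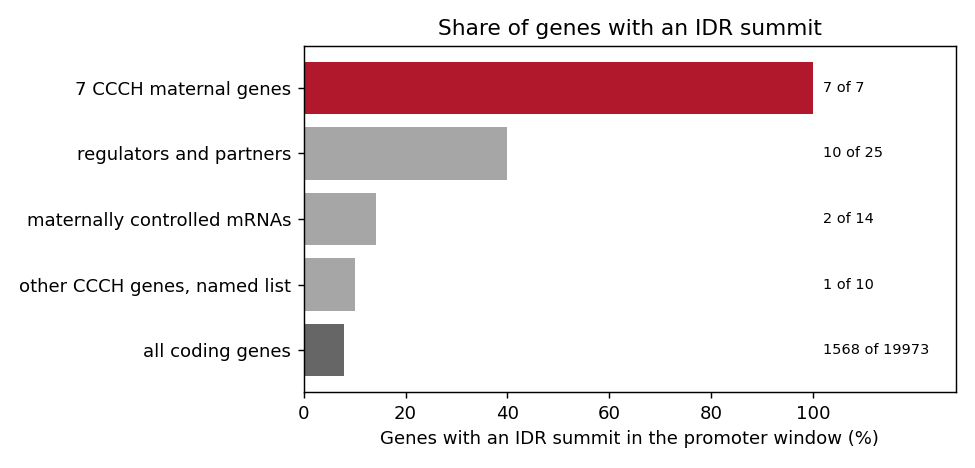
Percent of genes with a promoter summit in the IDR list for the 7 genes, for the 3 other named lists and for all coding genes, with counts at the right. The bars stand at 7 of 7, 10 of 25, 2 of 14, 1 of 10 and 1568 of 19973.

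Genes with the most similar strength in both replicates were of mixed kinds. Likeness was the larger of the absolute log2 ratios of rank in replicate 1 and replicate 2, so it rests on 2 samples. For mex-5 the nearest were col-71 and Y49F6B.2, which share a peak (ranks 139 and 192, a ratio of 0.06). For mex-1, by its summit 915 bp upstream, they were Y47D3A.1 and pola-1, which also share one (0.06). For pos-1 the nearest was Y43B11AR.3 (0.05), for oma-2 cox-6C and grld-1 (0.01), and for pie-1 F44E7.5 (0.04). For mex-6 the nearest were tbg-1 and rpac-19 (0.03), which were also nearest to oma-1 (0.11), with mex-6 next for oma-1 (0.13).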

How the data were processed

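ChIP-seq peaks from 2 biological replicates of 1 group were analysed, with groups and replicate numbers from the labels. Per the deposited text listings, the authors made a peak list from each replicate and from the pooled reads, each together with 1 further file shared by all lists that the listings do not describe, and the optimal IDR list came from those. The labels name a possible control experiment, which was not used here. The deposited signal of each peak is the authors' value. The sources used here give neither its scale nor the aligner, caller or IDR cutoff. The summit is the peak start plus the deposited offset. No read counts are given, so depth is unknown. There were 0 columns without a known sample or group.

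Summits were joined to 5' ends of genes in Ensembl release 115 (WBcel235, the same assembly as ce11), and sequence was read from the RefSeq copy of that assembly, with Python 3.11.15, numpy 2.4.6, pandas 2.3.3, scipy 1.17.1, Biopython 1.88 and matplotlib 3.10.9. Ranks include mitochondrial peaks, and genes are nuclear. The join was checked on simulated data. The ce10 IDR list was used for 1 alternative. Coding sequences were translated for the finger search, in place of a planned protein table. No test between samples was possible with 1 group, and counts are read against the share of all coding genes. Named genes were the 7, genes sharing their summits, up to 6 members a list by signal, the 3 nearest genes by rank, and the genes unc-130, tbb-2 and unc-119; others named were chosen after their values were seen. The 7 genes and all lists were chosen with earlier results of these data known. Alternatives were other windows, 5' ends, thresholds, single replicates, assignment, overlap and word windows.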

Additional observations from a re-analysis of the deposited data

How the results depend on the processing

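All 7 genes kept an IDR summit with 500 bp upstream (6.46% of coding genes) and with no bases downstream (7.57%). They also did with 2000 bp upstream (9.70%), any transcript 5' end (8.24%) or overlap of the peak in place of the summit (8.40%). These latter settings only widen the rule, so they could not lose a gene. All 7 were also found in the ce10 IDR list of 1942 peaks, a match made after the data were seen. That match looked up the same peaks by chromosome, width, summit offset and signal, so it was no separate check. No share of coding genes was taken for it. With each summit given to the nearest gene only, 6 of the 7 were left, without mex-5, against 5.35% of coding genes. Among the 833 strongest IDR peaks, 5 of the 7 were left, without pie-1 and oma-2, against 4.53% of coding genes, with 0 of the other CCCH genes, 4 regulators and partners and 1 maternally controlled gene. With 500 bp upstream 8 regulators and partners and 1 maternally controlled gene, egg-1, were left, against 6.46% of coding genes. With the 1667 strongest peaks of either replicate alone, 7 of the 7 were found each time, against 7.35 to 7.88% of coding genes, with 1 other CCCH gene, 9 to 10 regulators and 1 to 2 maternally controlled genes. The list without replicate 2 left out glp-1. The median rank of the 7, 493 in the pooled list, ran from 435 to 740 over the replicates, and all 7 had a relaxed entry in each. The 4 words fixed by name were found at 1 of the 7 within 50 bp of the summit and at 2 within 100 bp. Of all nuclear IDR summits, 6.74% and 13.3% held any of them at these distances. The 3' summits of the pooled list were at 5 of the 7 within 100 bp, at 7 within 500 bp and at 5 to 6 in single replicates. The gene added at 500 bp was oma-1, through the summit 64 bp upstream of spr-2. No share over all coding genes is given for 100 and 500 bp, so these counts are not read as a result. The cause of these changes was not tested, other than fewer peaks or narrower windows by construction. No paired analysis was possible because there is only 1 group. Unknown depth limits what a missing entry means.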

Other observations

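Over all summits, the words differed in how often they lay near strong and weak peaks. ACCGTAG was within 50 bp of 57 of 1648 nuclear IDR summits (3.46%) and of 136 of 15292 pooled summits below the IDR list (0.889%). TTCCCGC was near 55 IDR summits (3.34%) and 243 of the weaker ones (1.59%), and GTAAACA near 37 (2.25%) and 190 (1.24%). CTGTTTCA went the other way, at 2 IDR summits (0.121%) and 83 weaker ones (0.543%), as did GTAAATA, at 19 (1.15%) and 279 (1.82%). The part of base composition and position in these shares was not tested.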
